A study of Mus musculus with 72 samples.

Results

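The 50 genes described here act in the division cycle of the cell. They were chosen by name, with earlier results of these data known. Shares of all genes set beside counts of members are therefore a description and not a test of the lists. A first list of 22 genes serves DNA replication in S phase (Mcm2 to Uhrf1) and a second list of 28 genes serves mitosis. Their symbols were looked up through the Ensembl identifiers of a count table from mouse melanoma cell lines, and 50 of 50 matched among its 50600 genes. All 50 passed the filter on low counts in each of 6 lines, so that no member was left out of a test. The replication members are helicase, licensing, nucleotide-supply and G1/S control genes, and the mitosis members are cyclins, kinases, checkpoint, spindle and cytokinesis genes.

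A cell that commits to division first transcribes the replication genes, when cyclin-dependent kinases inactivate the retinoblastoma protein and activating E2F factors bind the promoters. The mitosis genes follow in G2, when B-MYB and FOXM1 act through the MuvB complex at a promoter element called the cell cycle homology region (CHR). Both groups are low in resting cells, so their transcripts are widely read as a sign of how many cells in a culture are dividing. Gastrin-releasing peptide (GRP) is a neuropeptide hormone whose receptor, GRPR, signals through a heterotrimeric G protein of the Gq family.

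The libraries came from 6 melanoma lines, which were 1057, 1064 and 2 transfected forms each of 1181 and 1014. Lines 1057, 1064, 1181 and 1014 were each established from a tumour of a transgenic mouse. These mice expressed a mutant NRAS in their melanocytes under the tyrosinase promoter. Lines 1057 and 1064 were female, of the genotype Tyr::NRASQ61K/°, Cdkn2a-/-, Tyr::CreA/°, Cdh1dF/dF, so that a Cre driven by the tyrosinase promoter had deleted the E-cadherin gene Cdh1, and they were labelled GRPR positive without a transgene. The male line 1181 was Tyr::NRASQ61K/°, Cdkn2a-/-, without Cre, Cdh1dF/dF, and the female line 1014 was Tyr::NRASQ61K/°. Both had been transfected either with a plasmid for Grpr fused to a green fluorescent protein (CMV::Grpr/tGFP, lines 1181-Grpr and 1014-Grpr) or with the fluorescent protein alone (CMV::tGFP, lines 1181-Ctrl and 1014-Ctrl), under the cytomegalovirus promoter. All cells were kept for 18 h in 0.5% serum and then treated for 4 h. The treatments were 0.1% DMSO (mock), 10 nM GRP, 1 µM of the GRPR antagonist RC-3095 (RC), or both (GRP+RC). Each of the 24 groups of line and treatment held 3 libraries, 72 in all. Each genotype is thus represented by 1 or 2 lines, and the labels do not say whether the 3 libraries of a group came from separate cultures. The p-values therefore measure the spread between these libraries, which may be technical.

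Total counts ran from 19512882 to 46862053 per library, so that 3 counts corresponded to at most 0.154 CPM (counts of a gene per 1000000 counts of the library). All 8 melanocytic markers were at or above 1 TPM (transcript abundance on a scale corrected for gene length) in every line. Cdh1 lay between 0 and 0.08 TPM in 1057 and 1064 and between 12.1 and 22.3 TPM in 1181-Ctrl, where the label also writes the deleted allele. In 1014-Grpr, whose label names no Cdh1 change, it was between 0.52 and 2.49 TPM. Grpr ranged over 214 to 332 TPM in 1057, 539 to 1557 TPM in 1064 and 155 to 842 TPM in 1014-Grpr. It was lower in 1181-Grpr, at 12.4 to 123.3 TPM apart from 1 library, and between 0 and 0.14 TPM in the control lines apart from 1 library. These 2 libraries went against their labels: the library labelled 1014-Ctrl mock 2 held Grpr at 69.8 TPM and the Y-linked Ddx3y at 45.3 TPM, and the library labelled 1181-Grpr GRP+RC 2 held neither. Cdh1 stood at 18.2 TPM in the first and at 3.68 TPM in the second. In these genes each library resembled the line named on the label of the other. They were kept under their labels, and the comparisons that rest on them are also given without them. The remaining 1181-Grpr libraries did not look like 1181-Ctrl with a plasmid alone. They held Xist, the RNA of the inactive X chromosome, at 39.7 to 53.9 TPM together with Ddx3y at 27.5 to 44.99 TPM, although the line is labelled male, while 1181-Ctrl held Xist at 0.01 to 0.14 TPM. Their summed melanocytic markers in mock were 21200 to 23990 TPM against 7962 to 8492 TPM, and Cdkn2a, which both labels give as deleted, was 3.41 higher in 1181-Grpr mock on the log2 scale (SE 0.41, adjusted p = 1.07e-05). The Grpr plasmid and these other differences cannot be told apart in any comparison of these 2 lines.

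The promoters of the replication and the mitosis genes differed in how often they held certain short motifs, and stretches from some members are shown first. Promoter windows from 250 bases before to 50 bases after the annotated gene start (RefSeq, GRCm38.p6) were found for 41 of the 50 members, and not for Mcm4, Gins1, Gins2, Ccne2, Foxm1, Ccna2, Tpx2, Kif20a or Aurkb. An E2F-type motif was counted where either strand held TTTGGCGC, TTTCCCGC, TTTCGCGC, TTTGCCGC or GGCGGGAA, of which the last overlaps TTTCCCGC on the opposite strand. A CHR was counted for TTTGAA or TTTAAA on either strand. The following stretches lie wholly upstream of the annotated start and in no annotated exon, with the motif in capitals, and the 4 replication members among them bear E2F-type matches while the 2 mitosis members bear a CHR. Mcm5 and Mcm6 encode subunits of the replicative helicase, Cdc6 loads that helicase, and Uhrf1 keeps DNA methylation in place on newly made DNA. Mki67 encodes the proliferation marker Ki-67 and Top2a the topoisomerase that untangles sister chromatids.
Mcm5 (chr8:75109341-75109382, plus strand): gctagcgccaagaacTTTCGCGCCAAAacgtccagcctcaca
Mcm6 (chr1:128359730-128359830, minus strand): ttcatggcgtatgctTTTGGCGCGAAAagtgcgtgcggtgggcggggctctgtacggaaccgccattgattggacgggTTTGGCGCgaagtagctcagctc
Cdc6 (chr11:98907998-98908035, plus strand): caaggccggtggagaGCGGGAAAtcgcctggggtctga
Uhrf1 (chr17:56303274-56303311, plus strand): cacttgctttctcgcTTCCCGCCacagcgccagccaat
Mki67 (chr7:135716457-135716510, minus strand): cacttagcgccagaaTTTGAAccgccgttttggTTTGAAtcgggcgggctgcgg
Top2a (chr11:99024190-99024242, minus strand): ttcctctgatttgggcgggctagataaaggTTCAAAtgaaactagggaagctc

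A gene was counted where any of its windows held a match. The E2F-type match stood in 8 of 18 S-phase genes with a window (44.4%), in 1 of 23 mitosis genes (4.35%, the mitotic kinase gene Cdk1) and in 4.46% of 27025 genes. The 8 were Mcm3, Mcm5, Mcm6, Mcm7, Cdc6, Cdt1, Rrm1 and Uhrf1. The CHR stood in 20 of 23 mitosis genes (87.0%), in 8 of 18 S-phase genes (44.4%) and in 30.6% of all genes, so that it is a common short match in any window of this length. A CHR together with a CCAAT box was found in 73.9% of mitosis genes, 33.3% of S-phase genes and 12.2% of all genes. A match is a description of letters in the window and not a bound site.

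**Figure D1:**
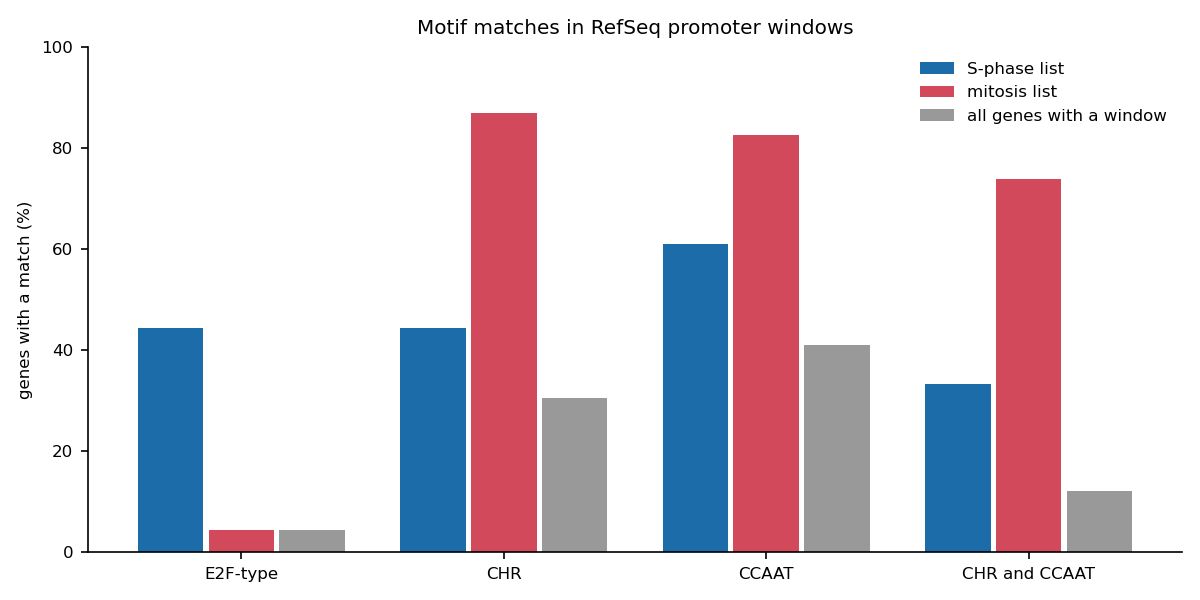
Share of genes (per cent, bars) with any promoter window that holds an E2F-type motif, a CHR, a CCAAT box, or both a CHR and a CCAAT box, for 18 S-phase members, 23 mitosis members and 27025 genes. The E2F-type bar of the S-phase list stands at 44.4% against 4.35% for the mitosis list, and the CHR bar of the mitosis list at 87.0% against 44.4% for the S-phase list.

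Before any treatment was compared, both lists were expressed in every line. In mock libraries no member had a mean under 1 TPM, and the median level over the S-phase members was 44.05 TPM in 1057, 22.2 in 1064, 50.3 in both 1181-Grpr and 1014-Grpr, 47.3 in 1181-Ctrl and 42.8 in 1014-Ctrl. The mitosis medians were 37.4, 18.8, 63.1, 80.0, 51.7 and 67.2 TPM in the same order of lines. Without the library labelled 1014-Ctrl mock 2, the medians of 1014-Ctrl were 47.4 and 74.3 TPM over 2 libraries. Pcna, the sliding clamp of the DNA polymerases, was the highest S-phase member in all 6 lines, with a mean of 227 ± 5.04 TPM in 1057 and 202 ± 79.7 TPM in 1064 (SD, n = 3). The lowest S-phase member was Gins2, a subunit of the helicase complex, in every line but 1064, where it was Ccne2, a cyclin of the G1/S transition. Among the mitosis genes the lowest was Ttk, a kinase of the spindle checkpoint, and the highest was either Cks2, a small partner of cyclin-dependent kinases, or Top2a.

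**Figure D2:**
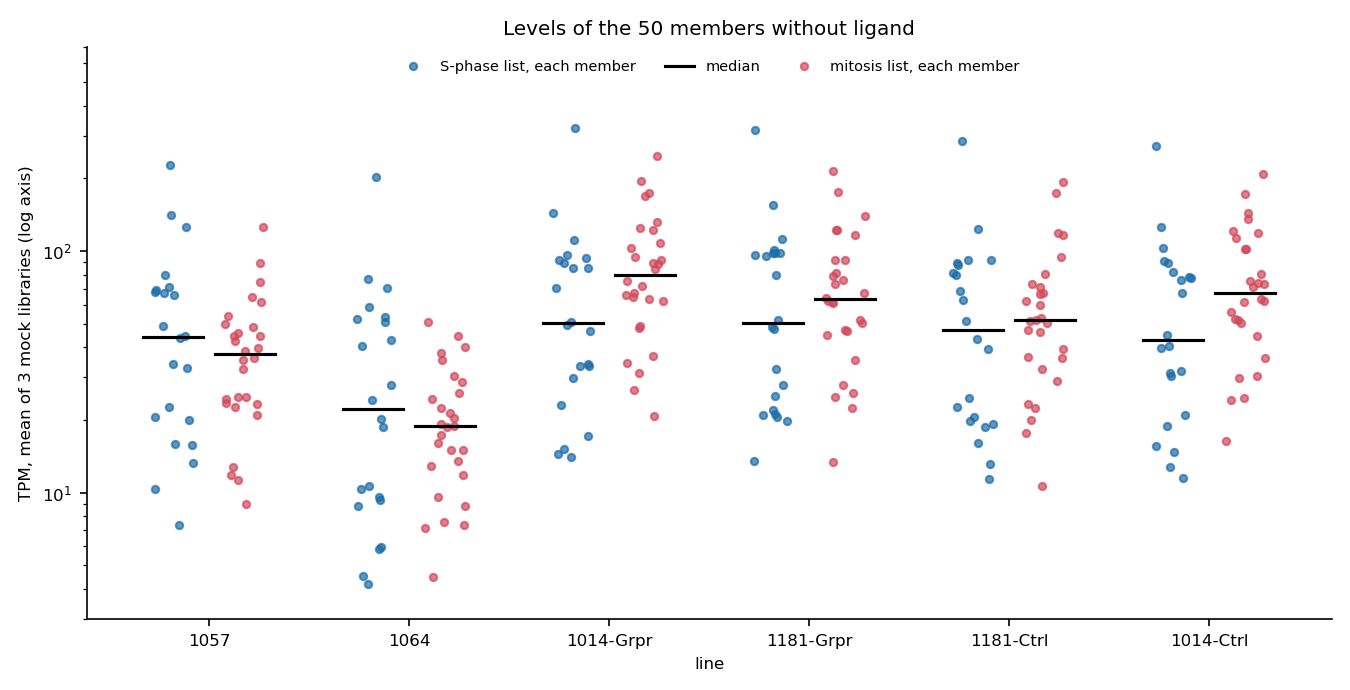
Mean level of each member in the mock libraries (TPM, log axis; 1 point per gene, n = 3 libraries per mean), with the S-phase and the mitosis list side by side in each of the 6 lines and a bar at each list's median. Line 1064 holds the lowest medians, at 22.2 and 18.8 TPM. Medians of its single mock libraries ran from 10.46 to 43.28 TPM and from 7.35 to 38.75 TPM.

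Between the mock libraries of the 2 lines with endogenous Grpr, 9 of the 50 members were higher in 1057 than in 1064. This is a smaller share than the 30.7% of 15090 genes tested that were higher. Ccne2 was 3.11 (SE 0.63, adjusted p = 0.000304) higher on the log2 scale and E2f8, an atypical E2F that represses other E2F targets, was 2.79 (SE 0.49, adjusted p = 6.19e-05) higher. The others were Tyms and Mcm7 of DNA synthesis, the G1/S cyclin Ccne1, and Ccnb1, Cdk1, Kif20a and Cks2 of mitosis. The differences rest on 1064 mock libraries that themselves spread widely, with 48, 5 and 3 members called without replicate 1, 2 and 3, and Mcm7 or Ccnb1 stood close to the threshold (adjusted p = 0.0337 and 0.0392). Between the mock libraries of 1181-Grpr and 1181-Ctrl edgeR and DESeq2 called 0 members, none at an unadjusted p under 0.05, against 12.1% of genes called by edgeR, and without replicate 1 the count became 10. Between those of 1014-Grpr and 1014-Ctrl both tools called 0, with 6 members at an unadjusted p under 0.05, against 3.23% of genes. Without the 2 libraries 0 were called and 2 had an unadjusted p under 0.05.

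The spread of both lists between replicates of a line was small in 1057 and wide in 1064 and 1181-Ctrl. For each library, the log2 CPM of each member was set against that member's mean over the 12 libraries of the line, and the median was taken over a list. In 1057 the 3 mock libraries spanned only 0.04 for the S-phase list and 0.19 for the mitosis list. In 1014-Grpr they spanned 0.25 and 0.55, in 1014-Ctrl 0.65 and 0.53 (0.15 and 0.11 between the other 2 libraries without mock 2), and in 1181-Grpr 1.08 and 0.54. In 1064 they spanned 1.86 and 2.10, and in 1181-Ctrl 2.45 and 2.83, with replicate number 1 above the others in every treatment. The 1064 mock libraries stood at 1.58, -0.19 and -0.29 for the S-phase list and at 1.69, -0.25 and -0.42 for the mitosis list. The 1181-Ctrl mock libraries stood at 1.60, -0.53 and -0.85 for the S-phase list and at 1.17, 0.48 and -1.66 for the mitosis list, so that number 2 was low in the first and intermediate in the second. In 1064, 1014-Grpr and 1181-Ctrl the libraries of 1 replicate number deviated together across all genes, so values with the replicate number as a block are given beside the unblocked ones in these lines.

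**Figure D3:**
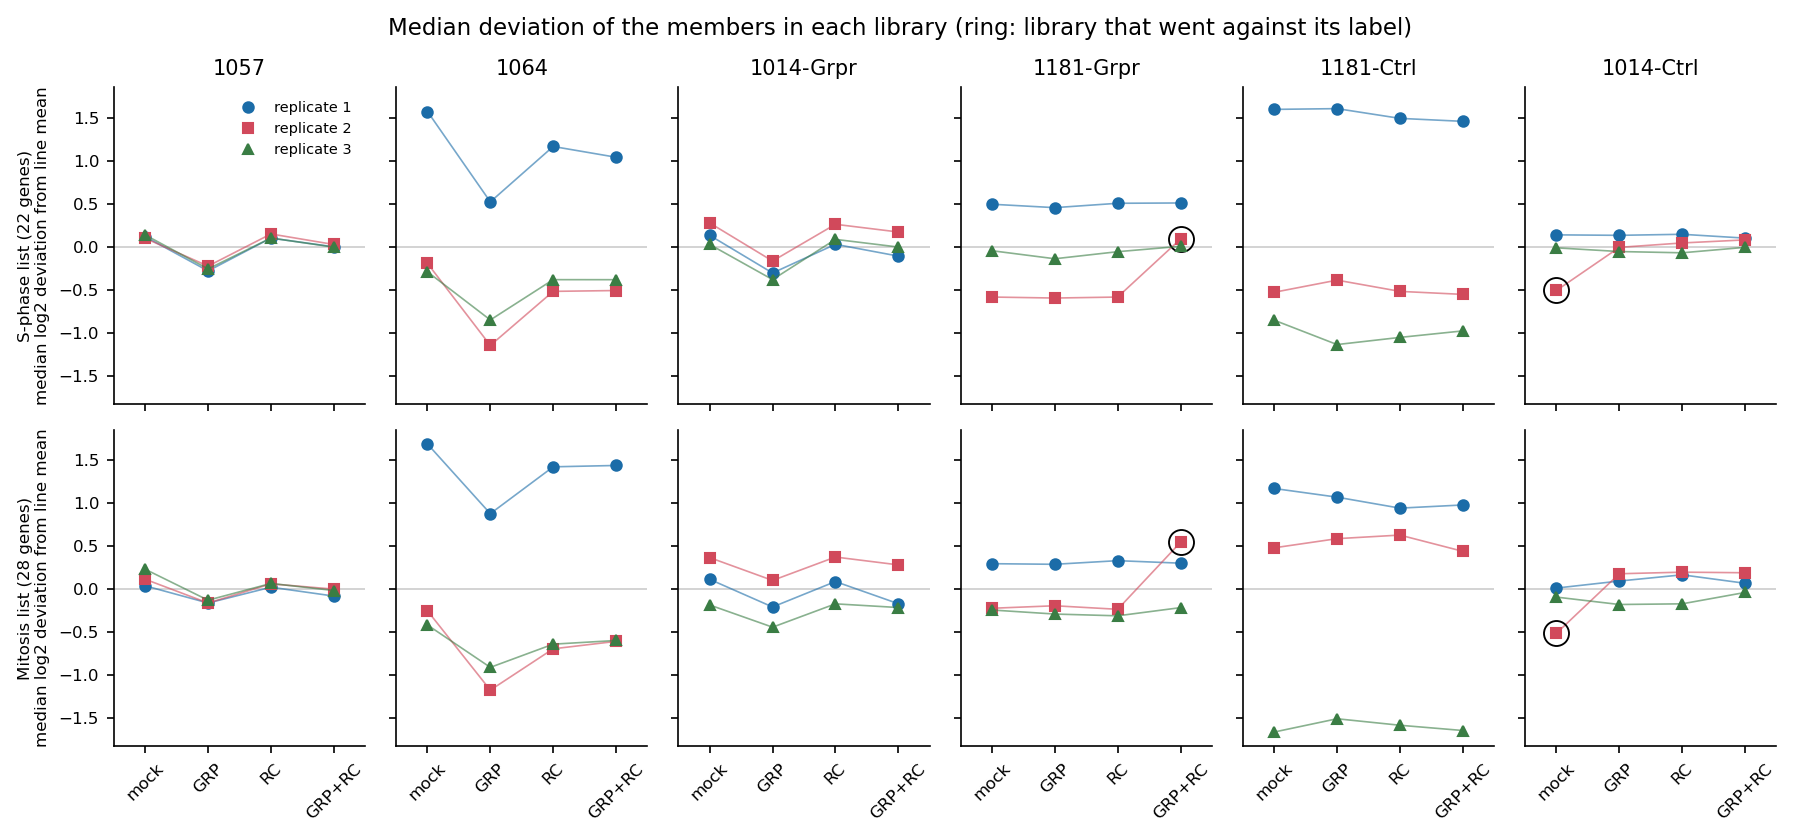
Median deviation of the S-phase list (upper row) and the mitosis list (lower row) in each of the 72 libraries, on the log2 CPM scale against the mean of the 12 libraries of the line, by treatment; lines join libraries of the same replicate number and rings mark the 2 libraries that went against their labels. The 1057 GRP libraries sit at -0.28, -0.22 and -0.25 for the S-phase list, below the mock libraries at 0.12, 0.10 and 0.14, and replicate number 1 stands apart in 1064 and 1181-Ctrl.

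In 1057, GRP lowered most replication genes. Of the 22 S-phase members, 18 were lower after 4 h of GRP than in mock and 2 were higher (edgeR quasi-likelihood test with Benjamini-Hochberg adjustment over all genes, adjusted p under 0.05 here and throughout), while 26.9% of the 14195 genes tested were lower and 25.7% higher. The median log2 fold change was -0.39 over the S-phase list, against -0.01 over all genes. In bulk RNA, fewer dividing cells and less of these RNAs in each cell cannot be told apart. Values per library are given in CPM after TMM scaling, in the order of replicates 1, 2 and 3.

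Mcm5 stood at 97.1, 94.8 and 93.3 CPM in mock and at 65.6, 73.3 and 71.5 CPM with GRP. The groups did not overlap, and the log2 fold change was -0.44 (SE 0.05, adjusted p = 2.32e-07). Mcm7, another subunit of the helicase ring, had the largest decrease, from 95.8, 93.01 and 92.4 to 56.9, 62.5 and 54.4 CPM, or -0.69 (SE 0.05, adjusted p = 8.93e-10). The loader Cdc6 went from 16.3, 14.9 and 17.3 to 11.5, 12.2 and 11.4 CPM. Its 3 GRP libraries were all below its mock libraries, with a change of -0.47 (SE 0.07, adjusted p = 8.41e-06). Rrm2, the regulated subunit of ribonucleotide reductase, which makes deoxynucleotides, fell by 0.35 (SE 0.03, adjusted p = 8.62e-08) on the log2 scale. Uhrf1 went from 85.3, 85.9 and 84.1 to 54.4, 57.4 and 54.4 CPM, a change of -0.62 (SE 0.03, adjusted p = 1.43e-11) without overlap.

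Control genes of the G1/S transition moved in both directions. Ccne1 and Ccne2, the cyclins that activate Cdk2, changed by -0.28 (SE 0.07, adjusted p = 0.00192) and -0.28 (SE 0.06, adjusted p = 0.000834). E2f1, the best known activating E2F, changed by -0.38 (SE 0.04, adjusted p = 1.24e-07). E2f8, a repressor of the same family, went the other way: it stood at 110.04, 114 and 111 CPM in mock and at 143, 142 and 141 CPM with GRP, all 3 GRP libraries above all mock libraries (0.35, SE 0.03, adjusted p = 8.34e-08). The only other member to rise was Cdc45, a helicase cofactor that fires origins (0.26, SE 0.05, adjusted p = 0.000266). Pcna was 169.8, 159 and 159 CPM in mock and 159, 166 and 164 CPM with GRP, a difference of 0.00 (SE 0.04, adjusted p = 0.95) that did not pass. Gins1 of the helicase complex and Chaf1b of the chromatin assembly factor were among the largest decreases, at -0.59 and -0.59.

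In the mitosis list of 1057, 18 of 28 members were lower with GRP and none was higher, and the median log2 fold change was -0.28. Nusap1 and Kif20a, a spindle microtubule protein and a kinesin of cytokinesis, had the largest decreases (-0.60, SE 0.05, adjusted p = 3.37e-09 and -0.55, SE 0.05, adjusted p = 2.31e-08). Ttk followed with -0.47 (SE 0.07, adjusted p = 2.14e-05). Plk1, a master kinase of mitosis, went from 29.8, 32.4 and 35.6 to 26.2, 27.8 and 27.002 CPM (-0.27, SE 0.05, adjusted p = 0.000363), again without overlap. Ccnb1, the mitotic cyclin, changed by -0.12 (SE 0.04, adjusted p = 0.0169), the spindle pole kinase gene Aurka by -0.16 (SE 0.04, adjusted p = 0.00509), Top2a by -0.43 (SE 0.04, adjusted p = 1.09e-07) and the transcription factor gene Foxm1 by -0.37 (SE 0.04, adjusted p = 3.03e-07). A pair of genes that serve the anaphase-promoting complex did not pass: Cdc20, its activator, changed by -0.11 (SE 0.07, adjusted p = 0.17) and Ube2c, its ubiquitin-conjugating enzyme, by 0.10 (SE 0.10, adjusted p = 0.437). Without replicate 1, Cdc20 passed (-0.17, SE 0.05, adjusted p = 0.00753) and Ube2c did not (0.11, SE 0.06, adjusted p = 0.164).

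Mki67, Cenpe and Cenpf of 1057 were also not called, and their mock libraries disagreed. Mki67 stood at 73.8, 179 and 228 CPM in mock and at 140.1, 125 and 156 CPM with GRP, so that mock replicate 1 alone lay low. Cenpe, a kinetochore motor, was at 11.004, 36.7 and 49.7 CPM in mock and Cenpf, a kinetochore scaffold, at 21.8, 59.6 and 73.5 CPM, with the same library low. Their longest annotated transcripts are 10061, 7910 and 11130 bases, and over all genes of 8000 bases or more the median deviation of that library was -0.06. Without replicate 1 these members passed, at -0.54 (SE 0.13, adjusted p = 0.00235), -0.54 (SE 0.15, adjusted p = 0.00671) and -0.78 (SE 0.12, adjusted p = 5.82e-05).

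Counted by order alone, every GRP library lay below every mock library in 1057 for 18 S-phase and 18 mitosis members, where 30.1% of all genes tested did so. The median change within replicate numbers 1, 2 and 3 was -0.39, -0.34 and -0.40 for the S-phase list and -0.17, -0.27 and -0.38 for the mitosis list. Markers of other cells also differed in this comparison. Of 4 immune markers only Cd68 reached 1 TPM, and the summed level of the 4 lay between 2.99 and 4.18 TPM in mock and between 13.2 and 14.8 TPM with GRP. Of 5 fibroblast markers only Pdgfra reached 1 TPM (sums of 1.2 to 1.43 TPM in mock and 1.63 to 1.85 TPM with GRP), and of 2 endothelial markers only Cdh5 did (3.1 to 3.74 and 4.46 to 4.6 TPM). No keratinocyte marker reached 1 TPM. Their part in the result was not tested.

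**Figure D4:**
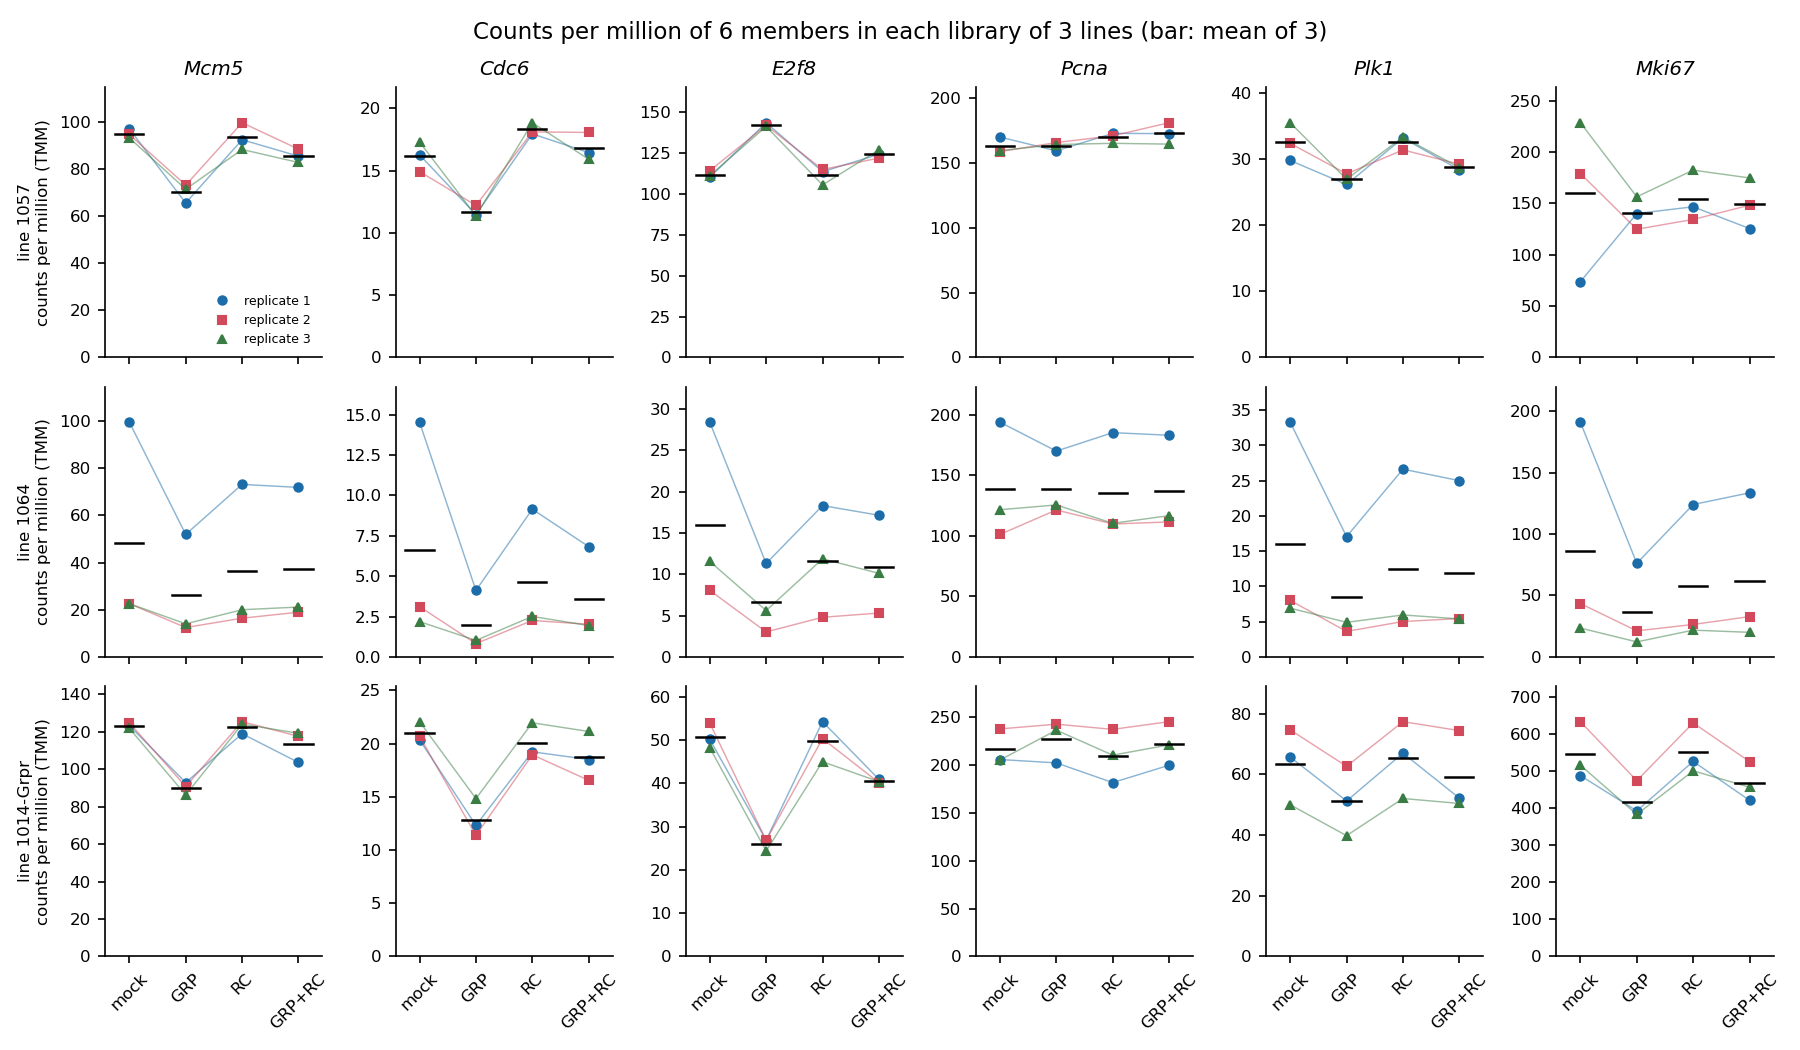
CPM after TMM scaling of Mcm5, Cdc6, E2f8, Pcna, Plk1 and Mki67 in each mock, GRP, RC and GRP+RC library of 1057, 1064 and 1014-Grpr; points are single libraries and the bar is the mean of 3. In 1057 the GRP points of Mcm5, Cdc6 and Plk1 lie below all mock points and those of E2f8 above them, in 1014-Grpr the E2f8 points lie below, and in 1064 replicate 1 lies above the others in each treatment.

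In 1014-Grpr, where Grpr came from the plasmid, the replication genes fell and few mitosis genes passed without the block. GRP lowered 16 of 22 S-phase members and 1 of 28 mitosis members, and raised none, while 12.7% of 13730 genes tested were lower and 16.3% higher. The count of 17 became 10, 19 and 10 without replicate 1, 2 and 3. The median log2 fold changes were -0.45 and -0.27. With the replicate number as a block, 19 S-phase and 24 mitosis members were lower, against 26.3% of genes, and Anln, a scaffold of the cytokinetic ring, was higher (0.32, SE 0.05, adjusted p = 9.49e-06). Within numbers 1, 2 and 3 the medians were -0.46, -0.44 and -0.43 for the S-phase list and -0.32, -0.24 and -0.29 for the mitosis list. All GRP libraries lay below all mock libraries for 16 S-phase and 2 mitosis members, against 19.3% of all genes. The immune marker sum, again with only Cd68 at 1 TPM or more, was 5.78 to 8.94 TPM in mock and 12.2 to 23.2 TPM with GRP, and its part was not tested.

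E2f8 had the largest decrease in 1014-Grpr. It stood at 50.1, 53.9 and 48.2 CPM in mock and at 26.8, 26.8 and 24.4 CPM with GRP, without overlap (-0.97, SE 0.08, adjusted p = 3.81e-06). Cdc6 went from 20.4, 20.7 and 22.1 to 12.3, 11.4 and 14.8 CPM (-0.71, SE 0.12, adjusted p = 0.000746), and Tk1, the thymidine kinase that salvages thymidine for DNA synthesis, changed by -0.70 (SE 0.23, adjusted p = 0.0388). Mcm5 went from 123, 125 and 122 to 92.9, 90.8 and 86.3 CPM (-0.46, SE 0.06, adjusted p = 0.00019). Uhrf1 changed by -0.55 (SE 0.08, adjusted p = 0.000313) and Rrm2 by -0.45 (SE 0.07, adjusted p = 0.000559). Of the mitosis list only Mki67 passed without the block (-0.39, SE 0.13, adjusted p = 0.0376). Plk1 stood at 65.7, 74.7 and 49.99 CPM in mock and at 51.2, 62.7 and 39.8 CPM with GRP, where the groups overlap, and its change was -0.31 (SE 0.21, adjusted p = 0.29) without the block and -0.32 (SE 0.06, adjusted p = 0.000105) with it.

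In 1064 no member passed without the block. edgeR called 0 of 50, with none at an unadjusted p under 0.05, and DESeq2 called 0, with 4 at that level, while 6.38% of 13794 genes tested were called. The median log2 fold changes were -0.83 and -0.80, with median standard errors of 0.70 and 0.88. With the block, 20 S-phase and 24 mitosis members were lower and Anln was higher (0.34, SE 0.07, adjusted p = 0.00392), against 23% of genes lower. The blocked medians were -0.80 and -0.74 and the median standard errors 0.10 and 0.11. Leaving out 1 replicate in the blocked fit left 36 to 44 members called.

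Per library, Cdc6 of 1064 stood at 14.5, 3.11 and 2.19 CPM in mock and at 4.12, 0.826 and 1.02 CPM with GRP. The GRP library of number 1 lay above the mock libraries of numbers 2 and 3, yet each GRP library lay below the mock library of its own number, and the blocked change was -1.64 (SE 0.19, adjusted p = 0.000174). E2f8 went from 28.4, 8.07 and 11.6 to 11.3, 3.03 and 5.61 CPM, -1.25 (SE 0.14, adjusted p = 0.00013) with the block. Tk1 changed by -1.39 (SE 0.20, adjusted p = 0.000422), and Mcm5 by -0.83 (SE 0.07, adjusted p = 6.59e-05). Among mitosis members Kif20a, Cenpf and Cenpe had the largest blocked decreases (-1.31, SE 0.17, adjusted p = 0.000246, -1.29, SE 0.13, adjusted p = 9.94e-05 and -1.19, SE 0.13, adjusted p = 0.000121). Plk1 was at 33.3, 8.02 and 6.92 CPM in mock and at 17.1, 3.62 and 4.91 CPM with GRP, and the blocked change was -0.87 (SE 0.11, adjusted p = 0.000258).

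By order alone, no member of 1064 had every GRP library below every mock library, where 12.3% of all genes did, but 20 S-phase and 24 mitosis members were lower in each replicate number, where 33.5% of all genes were. The medians within numbers 1, 2 and 3 were -0.93, -0.94 and -0.54 for the S-phase list and -0.79, -1.01 and -0.49 for the mitosis list. The immune marker sum was 3.51 to 9.7 TPM in mock and 6.72 to 10.95 TPM with GRP.

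**Figure D5:**
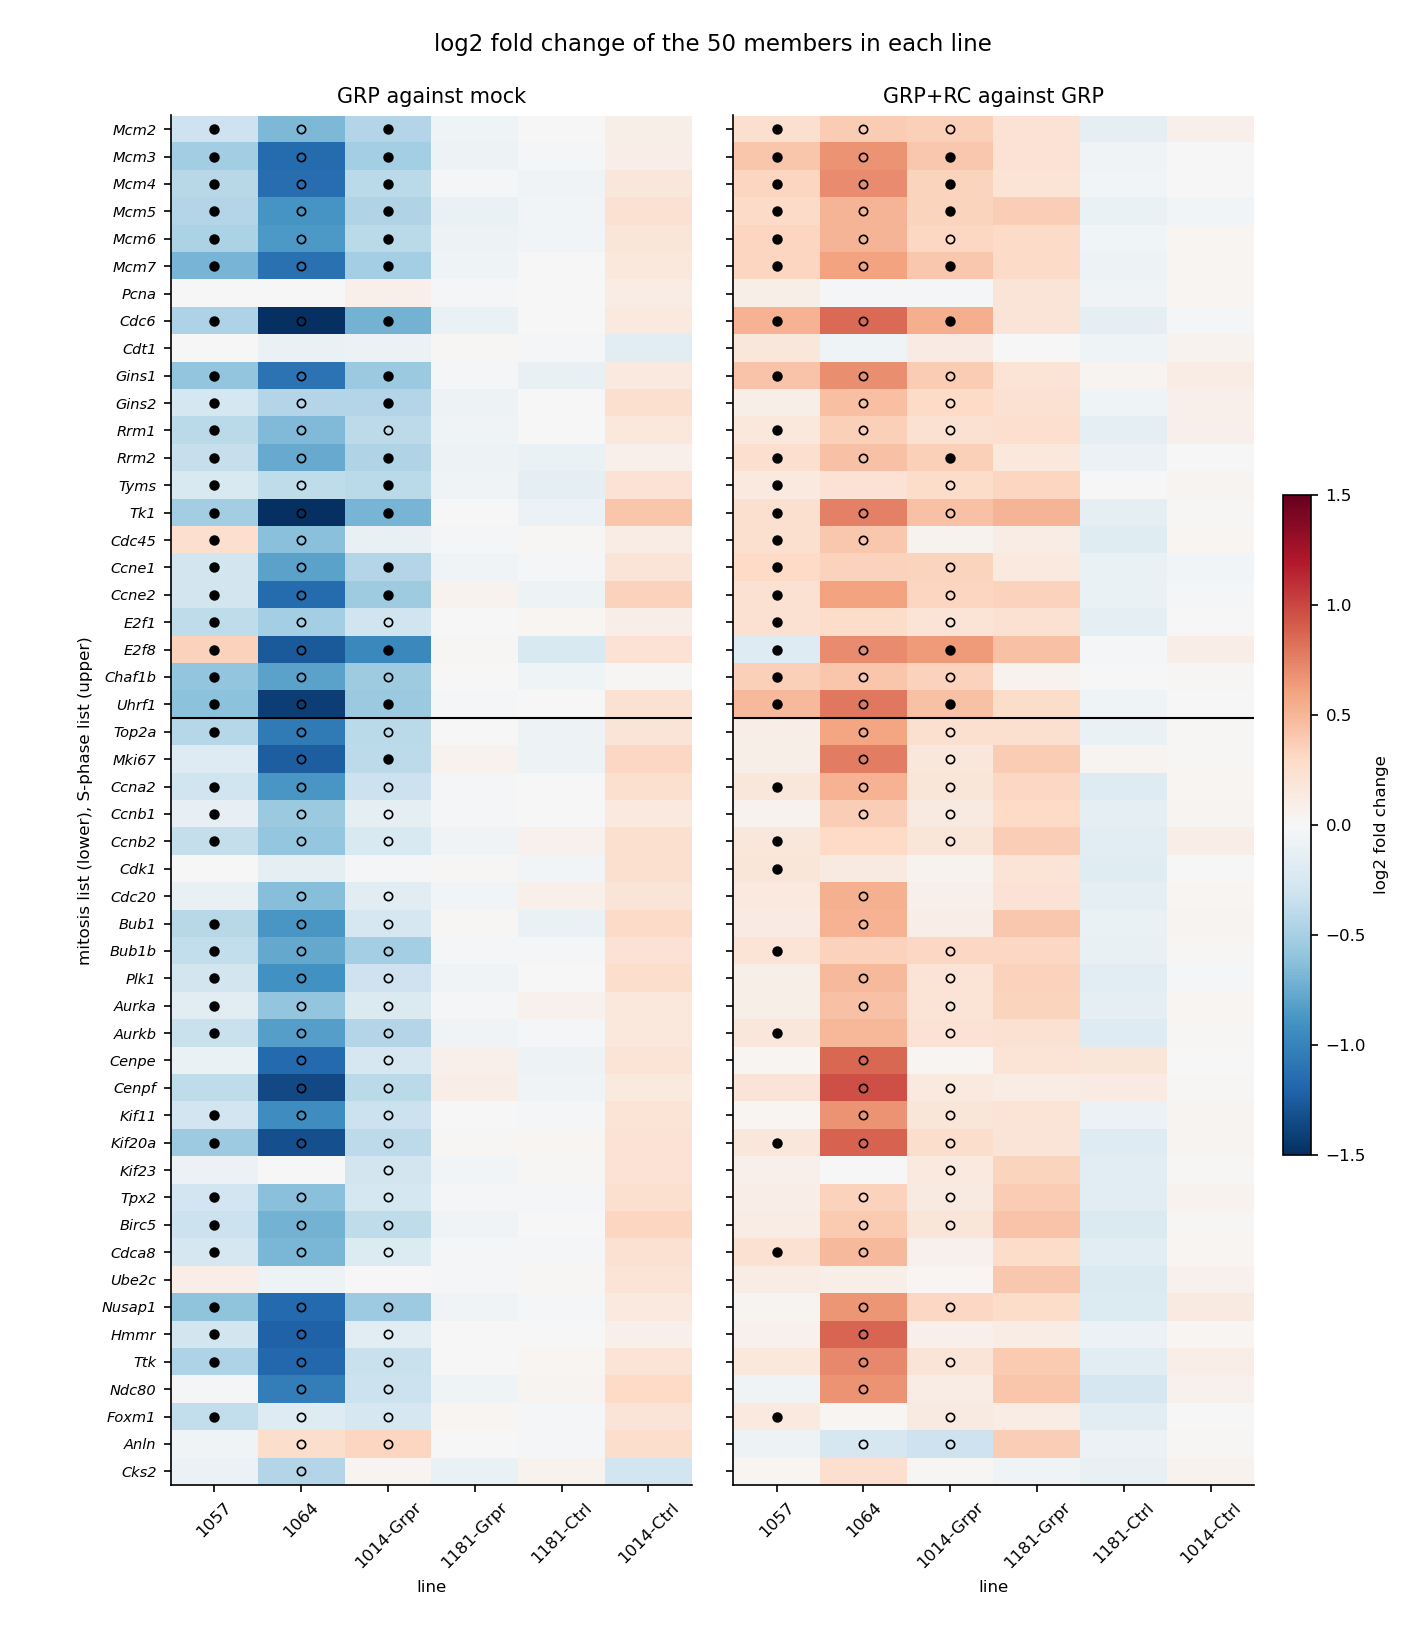
Log2 fold change of the 50 members (rows, S-phase above mitosis) in each of the 6 lines (columns) for GRP against mock and for GRP+RC against GRP, from the fits without the block; the colour scale saturates at 1.5 in either direction, a filled dot marks an adjusted p under 0.05 and an open dot a call made only with the replicate block in 1064 or 1014-Grpr. The left columns of 1057, 1064 and 1014-Grpr are mostly lower, with 36 dotted decreases in 1057, and the 3 other lines hold no dot.

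Some members stood outside the decrease in each of these lines. Pcna, Cdt1, Cdk1, Ube2c and Anln were not lower in 1057, nor in 1064 or 1014-Grpr with the block. Cdt1, a licensing factor that is degraded once S phase starts, changed by -0.01 in 1057, -0.10 in 1064 and -0.09 in 1014-Grpr, and its promoter holds an E2F-type match. Pcna changed by 0.00, 0.04 and 0.07, and Cdk1, the mitotic kinase, by 0.00, -0.16 and -0.04. Lower in all 3 lines were 36 members, which is 36 of 36 in 1057, 36 of 44 in 1064 with the block and 36 of 43 in 1014-Grpr with the block. Over all genes, 26.9% were lower in 1057, 23% in 1064 with the block and 26.3% in 1014-Grpr with the block. The share of all genes lower in all 3 lines is not given here, so the overlap cannot be set against it. Without the block, 15 members were lower in both 1057 and 1014-Grpr, of 36 and 17, where 26.9% and 12.7% of all genes were lower in each line alone. Of the S-phase members with a promoter window, 7 of 8 with an E2F-type match were lower in 1057 (all but Cdt1), and 7 of 10 without one were (all but Pcna, Cdc45 and E2f8). The like counts over all genes are not given here.

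In the 3 other lines GRP changed no member that could be called. In 1181-Grpr, the transfected line with less Grpr RNA and with both Xist and Ddx3y, edgeR and DESeq2 each called 0 of 50 and edgeR 0% of 14506 genes, with medians of -0.04 and -0.02 and median standard errors of 0.37 and 0.26. Without the 2 libraries that went against their labels and with the block, the median standard error fell to 0.04 for the S-phase list, 6 S-phase and 2 mitosis members had an unadjusted p under 0.05, and 0 were called. In 1181-Ctrl edgeR and DESeq2 called 0 members and edgeR 0% of 14188 genes, with medians of -0.02 and -0.01, and the blocked fit called 0 members and 0% of genes. In 1014-Ctrl the medians were 0.15 and 0.21, with 0 members called by either tool and 0% of 13755 genes, and without the 2 libraries and with the block they were -0.01 and 0.01, again with 0 members called. For the blocked fits of 1181-Grpr and 1014-Ctrl without the 2 libraries, the share of all genes called is not given here. The members cannot be set against the other genes in those fits. No member of these 3 lines had an unadjusted p under 0.05 without the block. E2f8, for example, changed by 0.02 (SE 0.40, adjusted p = 1) in 1181-Grpr, and the blocked change without the 2 libraries was 0.03 (SE 0.05, adjusted p = 0.933).

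The plasmid line and its control were then compared directly. The difference of the GRP effect between 1014-Grpr and 1014-Ctrl was called for 7 members, all S-phase and all more negative in 1014-Grpr, where 4.5% of 14204 genes were. The largest was E2f8, whose GRP effect differed by -1.19 (SE 0.33, adjusted p = 0.0221), followed by Cdc6 (-0.86, SE 0.23, adjusted p = 0.0155) and Uhrf1 (-0.78, SE 0.23, adjusted p = 0.0307). The others were Mcm3, Mcm4, Mcm7 and Gins2. Without replicate 1, 2 and 3 the count became 0, 7 and 1. The library labelled 1014-Ctrl mock 2 enters this comparison. Without the 2 libraries 8 members were called, Mcm5 being added (-0.41, SE 0.12, adjusted p = 0.0202), and the size for E2f8 became -0.82 (SE 0.13, adjusted p = 0.000163), for Cdc6 -0.62 (SE 0.15, adjusted p = 0.00823) and for Uhrf1 -0.51 (SE 0.13, adjusted p = 0.00855). With the block as well, 18 S-phase and 19 mitosis members were called lower, among them E2f8 (-0.88, SE 0.07, adjusted p = 3.98e-10) and Plk1 (-0.31, SE 0.08, adjusted p = 0.00218), where 17.9% of genes were.

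Between 1181-Grpr and 1181-Ctrl the GRP effect differed for 0 members by edgeR or DESeq2, none at an unadjusted p under 0.05, and for 0% of 15041 genes, in lines that also differ in Xist and Cdkn2a. Without the 2 libraries 0 were called, and with the block as well 0, with 1 at an unadjusted p under 0.05. Between 1057 and 1064 it differed for 0 members by either tool, with 1 at an unadjusted p under 0.05, where 1.3% of 15090 genes were called. With the replicate block, whose numbers pair the libraries of 1064 but not of 1057, 33 members were called: 13 S-phase and 19 mitosis members were higher in 1057 minus 1064, where 9.37% of genes were higher, and Anln was lower (-0.39, SE 0.09, adjusted p = 0.00414). The blocked medians of the difference were 0.42 and 0.44. Between 1057 and 1014-Grpr it differed for 1 member, where 5.67% of 15538 genes were higher: E2f8, which rose in 1057 and fell in 1014-Grpr, differed by 1.30 (SE 0.08, adjusted p = 1.75e-10). With the block, which pairs the libraries of 1014-Grpr only, 7 members were called, where 28.2% of genes were called in either direction. E2f8 (1.30), Cdc45 (0.36), Ndc80 of the kinetochore (0.30) and Ccne2 (0.25) were higher in 1057 minus 1014-Grpr, and Anln (-0.38), Mcm7 (-0.20) and Bub1 (-0.18) lower. The E2f8 exons overlap those of another gene on the opposite strand over 11.2% of their length, and the libraries were made with a stranded kit.

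With the antagonist alone, members were called no more often than genes at large in 1057, and none was called in the other lines. In 1057, RC raised 4 and lowered 5 of 50, where 13% of genes were higher and 11.3% lower, and the count of 9 became 9, 6 and 4 without replicate 1, 2 and 3. The higher ones were Cdt1 (0.24, SE 0.06, adjusted p = 0.00811), Cdc45, Cdc6 and Cdk1, and the lower ones Nusap1 (-0.28, SE 0.05, adjusted p = 0.000145), Bub1, a spindle checkpoint kinase, Kif20a, Top2a and Rrm1, the large subunit of ribonucleotide reductase. Cdc6 stood at 17.95, 18.1 and 18.9 CPM with RC beside 16.3, 14.9 and 17.3 CPM in mock, a change of 0.18 (SE 0.06, adjusted p = 0.0457). In each of the other 5 lines edgeR and DESeq2 called 0 members and edgeR 0% of the genes tested, with 1 member at an unadjusted p under 0.05 in 1014-Ctrl and none elsewhere. The 1014-Ctrl medians of 0.17 and 0.26 became -0.01 and 0.11 without the 2 libraries, where 0 were called and 0 had an unadjusted p under 0.05. In 1181-Grpr the medians were -0.02 and -0.03 with or without them, with 0 called. In 1064 with the block the call count was also 0, although 16 S-phase and 19 mitosis members had an unadjusted p under 0.05, and all 50 log2 fold changes were negative with medians of -0.30 and -0.31. That call count depended on which replicates were kept, as given below. In 1181-Ctrl, which holds no Grpr, the blocked fit called 0 members and 0% of genes, but 8 S-phase members and 1 mitosis member had an unadjusted p under 0.05, all lower with RC, with medians of -0.12 and -0.06. For 1064 and 1181-Ctrl the share of all genes at that unadjusted level is not given here.

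Adding the antagonist to GRP moved the replication genes upward again relative to GRP alone. This comparison shares its GRP libraries with the comparison of GRP and mock, so that its values are set beside the others without a test between them. In 1057, 18 of 22 S-phase members were higher in GRP+RC than in GRP and E2f8 was lower, where 11% of genes were higher and 13.7% lower. Cdc6 stood at 16.5, 18.1 and 15.9 CPM in GRP+RC, beside 11.5, 12.2 and 11.4 CPM in GRP and 16.3, 14.9 and 17.3 CPM in mock, and rose by 0.52 (SE 0.07, adjusted p = 9.16e-06). Uhrf1 stood at 77.3, 78.7 and 76.9 CPM and rose by 0.49 (SE 0.03, adjusted p = 4.54e-09), and Gins1 rose by 0.43 (SE 0.10, adjusted p = 0.00355). E2f8 stood at 124, 122 and 127 CPM and changed by -0.19 (SE 0.03, adjusted p = 0.000282). Of the mitosis list 8 of 28 were higher, led by Cdca8 and Bub1b, which serve chromosome passenger and spindle checkpoint complexes (0.22, SE 0.06, adjusted p = 0.0063 and 0.21, SE 0.04, adjusted p = 0.00132). The medians were 0.25 for the S-phase list and 0.10 for the mitosis list.

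In 1014-Grpr, 8 members were higher in GRP+RC than in GRP, all of the S-phase list, where 3.71% of genes were higher. They were Mcm3, Mcm4, Mcm5, Mcm7, Cdc6, Rrm2, E2f8 and Uhrf1, and without replicate 1, 2 and 3 the count of 8 became 4, 1 and 2. E2f8 stood at 40.9, 40.1 and 40.4 CPM in GRP+RC beside 26.8, 26.8 and 24.4 CPM in GRP, the opposite order to that in 1057 (0.64, SE 0.08, adjusted p = 0.000283). With the block 19 S-phase and 18 mitosis members were higher, against 17% of genes, and Anln was lower (-0.31, SE 0.05, adjusted p = 3.56e-05). In 1064 edgeR and DESeq2 called 0 members, none at an unadjusted p under 0.05, and edgeR 0.029% of genes. The blocked fit called 16 S-phase and 19 mitosis members higher, against 10.3% of genes, and Anln lower (-0.32, SE 0.07, adjusted p = 0.0136). Cdc6 and Tk1 led the first list (0.91, SE 0.20, adjusted p = 0.0122 and 0.85, SE 0.21, adjusted p = 0.0169) and Cenpf and Kif20a the second (0.97, SE 0.13, adjusted p = 0.00206 and 0.93, SE 0.17, adjusted p = 0.00553), but these counts depended on single replicates, with 6 to 34 members called when 1 was left out. In 1181-Grpr, 1181-Ctrl and 1014-Ctrl 0 members were called by either tool, none at an unadjusted p under 0.05 by edgeR, and 0% of genes by edgeR. In 1181-Ctrl the blocked fit also called 0 members and 0% of genes, but 2 S-phase and 19 mitosis members had an unadjusted p under 0.05, with blocked medians of -0.06 and -0.15, and 26 of 28 mitosis values were negative. Plk1, for example, changed by -0.17 (SE 0.05, adjusted p = 0.84). The share of all genes at that unadjusted level is not given here. In 1181-Grpr the medians of 0.22 and 0.30 became 0.30 and 0.10 without the 2 libraries and 0.07 and 0.04 without the 2 libraries and with the block.

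Further genes of the same pathways, listed by name beside the 50 and also with earlier results known, were counted. In 1057, 43 of 50 further replication genes were lower with GRP, where 26.9% of all genes were, with the largest changes in Timeless, a fork protection gene (-0.72, SE 0.07, adjusted p = 5.7e-08), and E2f2, an activating E2F (-0.65, SE 0.07, adjusted p = 2.17e-07). Of 54 further mitosis genes 41 were lower and 2 higher, and the largest change was the rise of Cenpa, the centromeric histone (1.06, SE 0.07, adjusted p = 4.85e-10). In 1014-Grpr 34 further replication genes were lower, among them E2f2 and the uracil glycosylase gene Ung, and 9 further mitosis genes were, where 12.7% of all genes were, and with the block 43 and 45 were, where 26.3% of all genes were. In 1064 2 further replication genes and no further mitosis gene were lower without the block, and 42 and 45 were with it, where 23% of all genes were.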

How the data were processed

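RNA of 72 samples of cells was sequenced (TruSeq stranded mRNA kit, poly(A) selection, Illumina sequencing), read quality was checked with FastQC 0.11.5, and reads were mapped with STAR to GRCm38.p5 with the GENCODE M13 annotation. The authors deposited raw counts per gene, not normalized, and TPM values per gene. The TPM scale was tested on the files: for 7574 genes the TPM per count kept a constant ratio between libraries to within 0.00735% (median spread). Totals were 19512882 to 46862053 counts (median 28112904.5), and how far depth limits precision was not tested.

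Members were found by symbol, and 50376 of 50600 identifiers had one. Counts were tested per line over its 12 libraries with edgeR 4.0.16 in R 4.3.3 (TMM scaling, filterByExpr, quasi-likelihood F-test, Benjamini-Hochberg adjustment over all genes that passed). A call is an adjusted p under 0.05, and the standard error is the log2 fold change divided by the root of F. Comparisons of 2 lines used 1 fit over 24 libraries. The study's own limit, an absolute log2 fold change above 1, was an alternative, as were DESeq2 1.42.0, its size factors, no filter, 1 fit over 72 libraries, the replicate block and leaving out libraries. The fitting steps were tested on simulated data.

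The labels give replicate numbers 1 to 3 in each treatment. Over the 9 pairs of libraries a line, compared with mock by the correlation of deviations from group means, every pair exceeded 0.1 in 1064 (lowest 0.664), 1014-Grpr (0.506) and 1181-Ctrl (0.853), so the numbers pair the libraries there. They did not in 1057 (-0.271), 1181-Grpr (-0.0318) or 1014-Ctrl (0.0618), but without the 2 libraries that went against their labels they did in 1181-Grpr (0.586) and 1014-Ctrl (0.490).

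The members and gene lists were chosen with earlier results of these data known. Named are 17 fixed members (Mcm5, Cdc6, Pcna, Rrm2, Ccne1, Ccne2, E2f1, E2f8, Uhrf1, Ccnb1, Cdc20, Plk1, Top2a, Mki67, Aurka, Ube2c and Foxm1), the 3 largest called changes per direction, list and comparison, and the 2 largest of each further list. Others, such as Cdt1, Cdk1, Anln, Cenpe and Cenpf, were named after their values were seen. Promoter windows were taken from RefSeq. Python 3.11.15, pandas 2.3.3, numpy 2.4.6 and matplotlib 3.10.9 were used.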

Additional observations from a re-analysis of the deposited data

Results flagged for a closer look

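The response to GRP differed between the line with the Grpr plasmid and its control line for 7 replication genes, as tested on the difference itself in 1 edgeR fit of both lines. The log2 difference, 1014-Grpr minus 1014-Ctrl, was -0.61 for Mcm3, -0.58 for Mcm4, -0.67 for Mcm7, -0.86 for Cdc6, -0.68 for Gins2, -1.19 for E2f8 and -0.78 for Uhrf1. The library labelled 1014-Ctrl mock 2, which held Grpr and Ddx3y RNA, enters these values. Without it and the other library that went against its label the differences kept their sign, at -0.82 for E2f8 and -0.62 for Cdc6.

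E2f8 moved in opposite directions with GRP in 2 lines that express Grpr. It rose in 1057 (0.35, SE 0.03) and fell in 1014-Grpr (-0.97, SE 0.08), and the difference, tested in 1 edgeR fit of both lines, was 1.30 on the log2 scale (SE 0.08, adjusted p = 1.75e-10). In each line the 3 GRP libraries lay on the same side of the 3 mock libraries. In 1064 E2f8 fell with the block (-1.25, SE 0.14).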

How the results depend on the processing

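Numbers of called members, of 50, depended most on how the spread was estimated. One fit over all 72 libraries called 0 for GRP, RC and GRP+RC in 1057, for GRP and GRP+RC in 1014-Grpr and for the differences 1014-Grpr minus 1014-Ctrl and 1057 minus 1014-Grpr, and 14 for mock 1057 against 1064. A limit of 1 on the absolute log2 fold change left 0 in the same 5 comparisons of treatments and 1 (E2f8) for 1014-Grpr minus 1014-Ctrl. Without the filter on low counts GRP called 30 in 1014-Grpr, and 1057 minus 1014-Grpr called 2. DESeq2 called 12 for 1014-Grpr minus 1014-Ctrl. The replicate block called 45 for GRP and 36 for GRP+RC in 1064, 44 and 38 in 1014-Grpr, 33 for each of the differences 1014-Grpr minus 1014-Ctrl and 1057 minus 1064, 7 for 1057 minus 1014-Grpr and 32 for mock 1057 against 1064. Without the 2 libraries that went against their labels and with the block, 38 were called for 1014-Grpr minus 1014-Ctrl, 1 for mock 1181 (Tyms) and 1 for mock 1014 (Plk1). In the comparisons of mock between lines, the block joined libraries of the same number across both lines. Nothing in the labels pairs those libraries, so the blocked counts for mock rest on an assumed pairing and no conclusion is drawn from them. In 1057 the same numbers paired 5 of 9 pairs of libraries only, and the block changed no count there by more than 1.5 times.

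Leaving out each replicate in turn called 35 to 43 for GRP, 4 to 9 for RC and 22 to 26 for GRP+RC in 1057, 10 to 19 for GRP and 1 to 4 for GRP+RC in 1014-Grpr, 0 to 7 for 1014-Grpr minus 1014-Ctrl, 0 to 1 for 1057 minus 1064, 1 to 2 for 1057 minus 1014-Grpr, 3 to 48 for mock 1057 against 1064 and 0 to 10 for mock 1181. With the block as well (chosen after seeing the data), leaving out replicate 1, 2 and 3 called 36, 40 and 44 for GRP, 0, 0 and 15 for RC and 6, 12 and 34 for GRP+RC in 1064, and 43, 42 and 44 for GRP and 39, 27 and 26 for GRP+RC in 1014-Grpr, and called 0 to 2 for RC in 1181-Ctrl. No value reversed. Of 66 named values, 59 lost their call in the fit of 72 and 57 under the fold limit, 2 with DESeq2 and 0 with its size factors. Leaving out replicate 1, 2 and 3 without the block cost 11, 15 and 22 of the 66 their call. The cause was not tested. No member had a mean under 1 TPM in the mock libraries, and the part of depth was not tested.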

Other observations

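Regulators of G1, the phase in which a cell decides whether to replicate its DNA, were counted beside the replication and mitosis genes. Of 16 such genes, GRP raised 4 and lowered 9 in 1057 and raised 4 and lowered 3 in 1014-Grpr by edgeR's quasi-likelihood test. Over all genes tested 25.7% were higher and 26.9% lower in 1057, and 16.3% higher and 12.7% lower in 1014-Grpr, so that the share of these genes raised was close to the background in 1057. Cdkn1a, which encodes the p21 inhibitor of cyclin-dependent kinases, was higher in each of the 3 lines in which members fell, by 0.72 (SE 0.04, adjusted p = 1.22e-11) in 1057, 1.00 (SE 0.19, adjusted p = 0.0153) in 1064 and 2.27 (SE 0.14, adjusted p = 1.02e-06) in 1014-Grpr on the log2 scale. In 1064 it was the only one of the 16 to be called without the block. Rbl2, which encodes the pocket protein p130, was lower in 1057 by -0.87 (SE 0.04, adjusted p = 5.83e-12). Myc, a growth-promoting transcription factor gene, was higher in 1014-Grpr by 1.00 (SE 0.11, adjusted p = 5.15e-05). With the antagonist added to GRP in 1014-Grpr, Cdkn1a was -1.54 (SE 0.14, adjusted p = 4.52e-05) and Myc -0.52 (SE 0.11, adjusted p = 0.0102) relative to GRP alone, in libraries shared with the comparison above. In 1057 the same change of Cdkn1a was -0.29 (SE 0.04, adjusted p = 1.25e-05), and RC alone raised it by 0.22 (SE 0.04, adjusted p = 0.000231) over mock. In 1064 it was -0.83 (SE 0.07, adjusted p = 0.000359) in GRP+RC against GRP with the block. A link between Cdkn1a and the members was not tested.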
